A study of Mus musculus with 12 samples.

Results

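Bach2 and Foxp1 are transcription factor genes tied to the resting state of T cells. The regions of open chromatin in and around them were followed here in the mouse. The cells were regulatory T cells (Treg), regulatory cells induced in culture (iTreg) and conventional T cells (Tconv). Overlapping peaks of all 12 deposited lists, with an overlap of 1 bp or more, were joined into 76882 regions. A region belonged to one of the genes if its midpoint lay in the RefSeq gene body or, outside gene bodies, if an end of that gene was the nearest and lay within 50 kb. By this rule 144 regions were found, 59 at Bach2 and 85 at Foxp1. Of the Bach2 regions 52 lay in the gene body and 7 outside it, and of the Foxp1 regions 82 lay in the body and 3 outside. The outermost Bach2 region counted lay 39.1 kb from the gene, and the nearest region beyond, 15.3 kb away, was assigned to Gja10. The outermost Foxp1 region counted lay 44.5 kb away, and the nearest one not counted lay 50.8 kb away and was assigned to Eif4e3.

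The study measured open chromatin by ATAC-seq in T cell subsets of the bone marrow, to compare T cells specific for influenza hemagglutinin (6.5TCR) after transfer into Aire-HA mice with the T cells of the host. ATAC-seq uses a transposase that cuts accessible DNA, and each library is represented by its list of called peaks. All cells were of the Balb/c strain, and each of the 6 groups had 2 libraries. Donor Treg were transferred 6.5TCR cells sorted on day 14 as CD45.1-, CD45.2+, CD25+ and LAP+, LAP being the latent TGF-beta peptide. Host pTreg and host tTreg were CD45.1+ CD45.2+ cells with CD25 and CTLA4, without Nrp1 in pTreg and with it in tTreg; their own labels give neither a day nor a genotype. The iTreg were wild-type CD25+ LAP+ cells from culture, and the sources used here do not give the conditions of the culture. Donor Tconv were CD25- cells of the same transfer, sorted on the same day. Host Tconv were CD45.1+ CD45.2- CD25- cells, titled wild type and named Aire-HCO in their library names. Ages, pooling and whether replicates came from separate animals are not given, so p-values measure only the spread between these libraries, which may be technical. The 6 libraries of donor Treg, host pTreg and host tTreg are called in vivo Treg here. Peak numbers ran from 28394 to 37934 in in vivo Treg, from 58357 to 63207 in iTreg and from 37050 to 47193 in Tconv. The number of reads behind a list is unknown, and a missing peak means that none was called, not that the chromatin was closed.

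Bach2 encodes a repressor of the basic leucine zipper class that pairs with small Maf proteins and competes with AP-1 factors for related DNA sites. In T cells it is known for holding back effector differentiation and for favouring the resting and regulatory states. Foxp1 encodes a forkhead factor that is known for keeping naive T cells quiescent, in part by limiting the response to interleukin 7. It can pair with other Foxp proteins, among them Foxp3, the factor that defines Treg.

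On the GRCm38.p6 assembly, whose coordinates are those of mm10, Bach2 spans chr4:32238413-32586109 on the plus strand, or 348 kb. Foxp1 spans chr6:98925342-99522746 on the minus strand, or 597 kb. RefSeq promoter windows, running from 250 bases before to 50 bases after a start of transcription, were given for both genes, with 1 window for Bach2 and 3 for Foxp1. The Foxp1 windows are printed because peaks appeared and disappeared there between cell types. They lie 1.75, 256 and 494 kb from the 5′ end of the gene, at chr6:99520944-99521243, chr6:99266466-99266765 and chr6:99028249-99028548, all on the minus strand. The sequences are RefSeq's, 5′ to 3′, and capitals mark every match to the 9 motifs searched on both strands.
Foxp1 upstream start: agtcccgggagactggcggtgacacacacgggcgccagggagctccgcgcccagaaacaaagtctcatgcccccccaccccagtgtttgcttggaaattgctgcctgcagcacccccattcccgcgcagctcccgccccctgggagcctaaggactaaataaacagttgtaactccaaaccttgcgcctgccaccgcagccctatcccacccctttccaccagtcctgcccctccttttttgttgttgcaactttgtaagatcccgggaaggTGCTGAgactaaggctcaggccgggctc
Foxp1 middle start: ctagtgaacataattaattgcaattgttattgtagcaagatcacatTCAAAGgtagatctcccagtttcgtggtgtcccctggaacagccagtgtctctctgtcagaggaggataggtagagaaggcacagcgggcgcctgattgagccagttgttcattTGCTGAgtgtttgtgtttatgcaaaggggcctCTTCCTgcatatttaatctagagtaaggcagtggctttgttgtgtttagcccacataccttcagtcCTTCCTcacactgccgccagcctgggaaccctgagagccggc
Foxp1 downstream start: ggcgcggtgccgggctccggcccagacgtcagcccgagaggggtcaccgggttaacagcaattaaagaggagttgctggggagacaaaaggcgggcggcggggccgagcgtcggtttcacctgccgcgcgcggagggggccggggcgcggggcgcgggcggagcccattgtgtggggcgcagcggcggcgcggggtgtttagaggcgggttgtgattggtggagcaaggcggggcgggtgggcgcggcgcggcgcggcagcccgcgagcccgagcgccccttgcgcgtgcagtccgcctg

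The motifs searched were AP-1 TGANTCA, the Maf-type TGCTGA, forkhead TGTTTAC, the ETS forms CCGGAA and AGGAAG, Runx TGTGGT, TCF and LEF CTTTGA, the E-box CAGCTG and STAT TTCNNNGAA. The window of the upstream start held 1 TGCTGA, a motif found in 19.5% of the 32851 windows of all genes. The window of the middle start held 1 TGCTGA, 2 AGGAAG, found in 35.4% of windows, and 1 CTTTGA, found in 16.0%. None of the 9 motifs was found in the window of the downstream start, which stood apart in base composition. Its GC content was 75.3%, with 44 CpG dinucleotides, against 60.3% and 13 at the upstream start and 48.7% and 5 at the middle start. The median of all windows was 52.7% GC and 7 CpG. A match describes letters in these windows and is no measure of binding.

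At the start of the middle Foxp1 window, peaks were present in none of the 6 in vivo Treg libraries and in both iTreg and all 4 Tconv libraries. In the merged region there, chr6:99265215-99266879, all 6 in vivo Treg libraries had 0 bp of peak. It was covered by 1594 and 1662 bp in iTreg, by 1509 and 1430 bp in donor Tconv and by 938 and 1502 bp in host Tconv. The peaks reached from 162 to 364 bp before the start to 775 to 1300 bp after it. Cutting every list to its 28394 widest peaks, the length of the shortest list, left the same pattern of 0 in vivo Treg, 2 iTreg and 4 Tconv libraries.

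The region of the upstream start, chr6:99520424-99523690, had a peak in all 12 libraries, but the peaks reached the start itself in only some of them. In in vivo Treg the peak nearest to the start ended between -1603 and -437 bp of it, so that none touched the window. In iTreg the peaks ended at 80 and 569 bp. In Tconv they ended at 109 and -90 bp in the donor libraries and at -85 and -57 bp in the host libraries. Peaks thus touched the window in 0 of 6 in vivo Treg, 2 of 2 iTreg and 4 of 4 Tconv libraries. Over the region, peaks covered 715 and 2077 bp in donor Treg, 1701 and 1046 bp in host pTreg and 718 and 1667 bp in host tTreg, against 2778 and 3210 bp in iTreg and 2689, 2592, 2280 and 2559 bp in Tconv. The in vivo Treg libraries lay below all others, without overlap.

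At the downstream start the order was the other way round. The region chr6:99027703-99029186 was covered by 1123 and 1002 bp in donor Treg, by 1168 and 0 bp in host pTreg, by 913 and 1080 bp in host tTreg and by 1460 and 1444 bp in iTreg, and by 0 bp in all 4 Tconv libraries. The exception among in vivo Treg was host pTreg replicate 2. With lists cut to equal length, the 5 in vivo Treg and 2 iTreg libraries still had a peak there and no Tconv library had one. A neighbouring region, chr6:99030977-99031976, had 881 and 607 bp of peak in host pTreg and 798, 622, 774 and 1000 bp in Tconv, and none in donor Treg, host tTreg or iTreg. Of these 2 regions host pTreg replicate 2 had the one of the Tconv libraries, and replicate 1 had both.

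**Figure D1:**
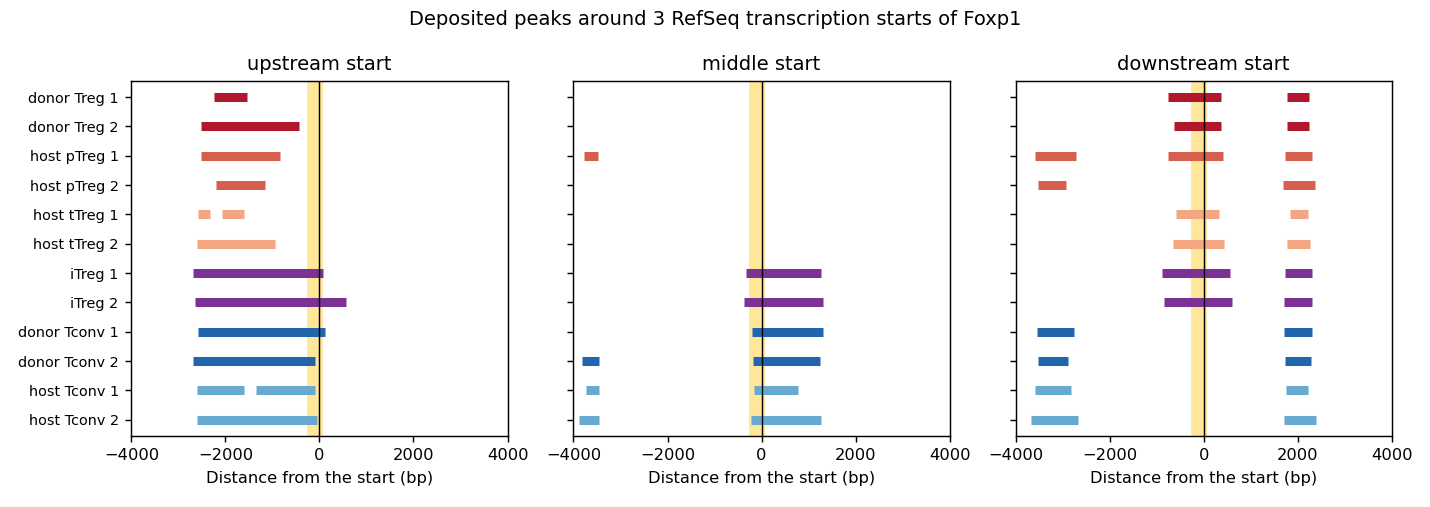
Peaks of each library (horizontal bars, 1 line per library) within 4000 bp of 3 transcription starts of Foxp1; the x axis is the distance from the start in bp in the direction of transcription, and the shaded band is the promoter window. At the upstream start the in vivo Treg peaks end by -437 bp, at the middle start in vivo Treg have no peak on the window, and at the downstream start 5 of 6 in vivo Treg and both iTreg libraries have one and no Tconv library does.

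Of all 32851 promoter windows, 130 (0.396%) had a peak in no in vivo Treg and all 4 Tconv libraries, and the upstream and middle Foxp1 windows were among them. A further 42 windows (0.128%) had a peak in 5 or 6 in vivo Treg libraries and in no Tconv library, the downstream Foxp1 window among them. Of 4163 genes with more than 1 window, Foxp1 was the only one with a window of each kind (0.024%). These limits were set after the Foxp1 values had been seen, so the count is a description and was not tested. The single Bach2 window, chr4:32417185-32417484, lies 179 kb into the gene and had no peak in any library, as 56.7% of all windows did, while 32.7% had one in all 12.

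The number of regions with a peak was lower in in vivo Treg than in Tconv at both genes. At Bach2 the libraries carried 26 and 27 regions in donor Treg, 28 and 24 in host pTreg, 20 and 27 in host tTreg, 44 and 43 in iTreg, 37 and 37 in donor Tconv and 33 and 36 in host Tconv. In vivo Treg lay below Tconv without overlap, and iTreg above both. The mean was 25.3 ± 2.94 in in vivo Treg (SD, n = 6) and 35.8 ± 1.89 in Tconv (SD, n = 4), a difference of -10.4 regions. The exact two-sided permutation test over the 210 ways to divide the libraries gave p = 0.00476, the smallest it can give, and 0.00635 after Benjamini-Hochberg adjustment over the 4 tests of this comparison.

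At Foxp1 the libraries carried 37 and 37 regions in donor Treg, 41 and 32 in host pTreg, 26 and 33 in host tTreg, 57 and 59 in iTreg, 62 and 59 in donor Tconv and 53 and 61 in host Tconv. Here iTreg lay among the Tconv libraries, and in vivo Treg again lay below them without overlap. The means were 34.3 ± 5.2 in in vivo Treg (SD, n = 6) and 58.8 ± 4.03 in Tconv (SD, n = 4), a difference of -24.4 regions (exact permutation test, p = 0.00476, adjusted 0.00635).

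In vivo Treg lists were also shorter, so the regions were counted per 10000 regions of the same library. Foxp1 took 11.8 and 11.1 per 10000 in donor Treg, 11.2 and 10.2 in host pTreg, 9.64 and 9.55 in host tTreg, 9.92 and 9.41 in iTreg, 13.4 and 13.6 in donor Tconv and 14.9 and 13.9 in host Tconv. In vivo Treg and iTreg both lay below every Tconv library. The difference was -3.37 per 10000 between in vivo Treg and Tconv, at means of 10.6 ± 0.925 and 13.9 ± 0.655 (SD, n = 6 and 4; exact permutation test, p = 0.00476, adjusted 0.00635). For Bach2 the difference was -0.683 per 10000, at means of 7.81 ± 0.334 in in vivo Treg and 8.49 ± 0.554 in Tconv, and the groups overlapped (exact permutation test, p = 0.0333, adjusted 0.0333). Leaving out single libraries raised the adjusted p for Bach2 to as much as 0.107, at -0.431 per 10000 without host Tconv replicate 1. Per 10000, in vivo Treg and Tconv thus stood apart at Foxp1 and overlapped at Bach2.

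Bases under peaks gave the same order of in vivo Treg and Tconv. Per 1000000 bases under peaks in the library, Foxp1 regions held 957 ± 124 in in vivo Treg and 1467 ± 82.1 in Tconv, without overlap (exact permutation test, n = 6 and 4, adjusted p = 0.00635). Bach2 regions held 1083 ± 114 in in vivo Treg and 1372 ± 123 in Tconv, with overlap (exact permutation test, adjusted p = 0.0143).

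Only donor Treg shared a run code (BW13) with the Tconv libraries; host pTreg and host tTreg carried the code DR31 and iTreg none. Within BW13 the difference between donor Treg and Tconv was -9.25 regions at Bach2 and -21.8 at Foxp1, and -2.48 per 10000 at Foxp1. Each was at the smallest p that 2 libraries against 4 allow in the exact permutation test, 0.0667, and 0.0889 after adjustment. For Bach2 per 10000 the difference within BW13 was -0.294 (exact permutation test, p = 0.667). The number in the library names was at most 17000 in in vivo Treg and ran from 42000 to 50000 in iTreg and Tconv, and the cell types cannot be told apart from this number.

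**Figure D2:**
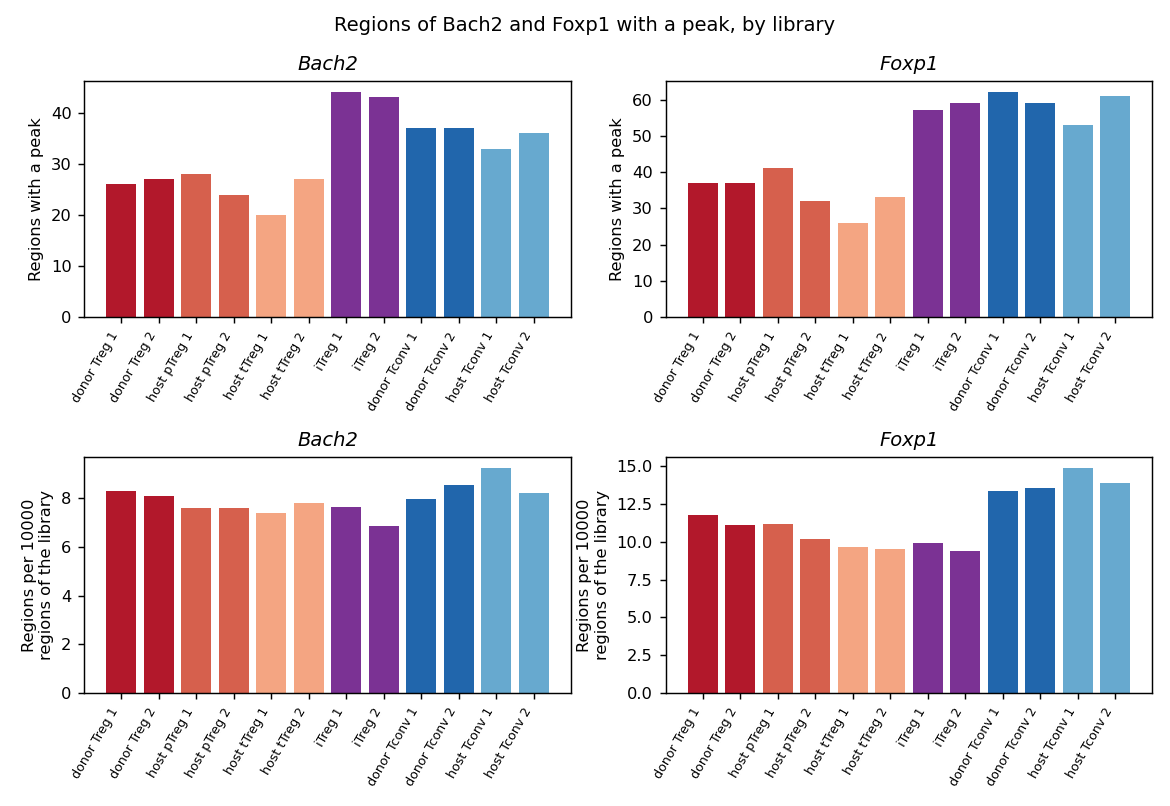
Bars give the number of Bach2 and Foxp1 regions with a peak in each library (upper row) and the same per 10000 regions of that library (lower row). In vivo Treg libraries carry 20 to 28 Bach2 and 26 to 41 Foxp1 regions, against 33 to 37 and 53 to 62 in Tconv, while iTreg is high in number and low per 10000.

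A region was called lost in vivo if it had a peak in none of the 6 in vivo Treg and in all 4 Tconv libraries, which leaves iTreg outside the definition. Bach2 had 7 lost regions and Foxp1 16, where 3770 regions (4.90%) of all 76882 were lost. Of the regions with a peak in all 4 Tconv libraries, 7 of 31 at Bach2 (22.6%) and 16 of 49 at Foxp1 (32.7%) were lost, against 11.2% of all such regions, 10.8% of those in protein-coding gene bodies and 15.9% of those in gene bodies over 1 kb from a gene end. Among the 31 genes with 20 or more regions in all 4 Tconv libraries, the median share lost was 15%, and 1 gene exceeded Foxp1 and 11 exceeded Bach2. Foxp1 had the most regions and the most lost regions of 15830 genes, and Bach2 ranked 4 by regions and 7 by lost regions, with 6 genes above it and 9 level with it. Per region, Fisher's exact test of 6 against 4 libraries called 7 of 19 Bach2 and 16 of 32 Foxp1 regions lower in in vivo Treg, where 21.5% of 17531 testable regions were called. These were the same 23 regions, since only a complete split passed, at an adjusted p of 0.0192. The calls rest on all 4 Tconv libraries: without host Tconv replicate 1, 30 regions of the 2 genes were lost and 5917 in all.

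**Figure D3:**
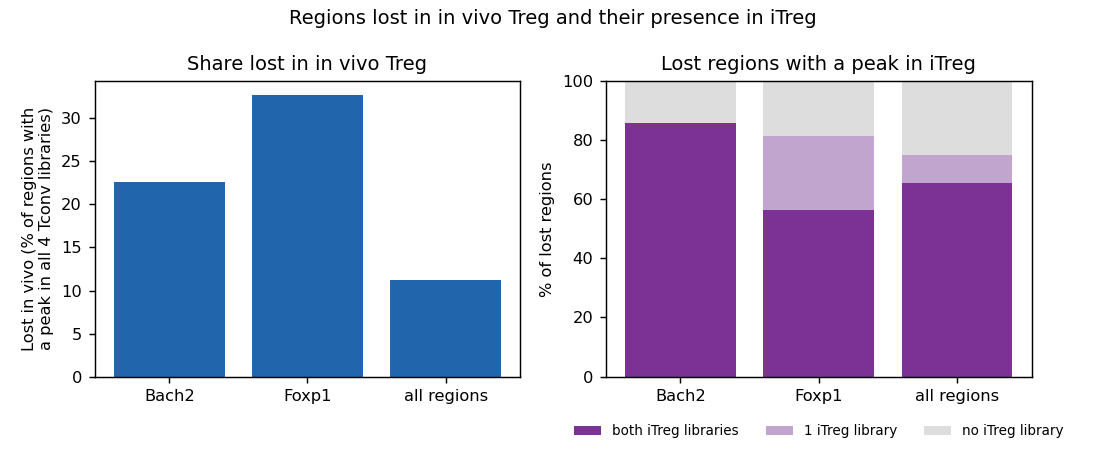
Left, the share of regions with a peak in all 4 Tconv libraries that had none in the 6 in vivo Treg libraries, in percent, for Bach2, Foxp1 and all regions. Right, the percent of these lost regions with a peak in both, 1 or no iTreg library; Bach2 and Foxp1 lose 22.6% and 32.7% against 11.2%, and the 2 genes together keep 15 of 23 in iTreg.

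The lost Bach2 regions all lay inside the gene, from 69.0 to 333 kb from its 5′ end. The 6 regions of the gene body nearer to the 5′ end that had a peak in all 4 Tconv libraries had one in all 12, among them the region over the 5′ end, chr4:32237799-32243891. With the gene divided into 4 equal lengths from its 5′ end, the lost regions numbered 1, 4, 0 and 2, where all 52 regions of the body were divided into 16, 18, 7 and 11.

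The first lost Bach2 region, 69.0 kb into the gene at chr4:32307103-32307742, was covered by 358 and 463 bp in iTreg, 622 and 559 bp in donor Tconv and 562 and 594 bp in host Tconv. At 88.0 kb, chr4:32326101-32326720 was covered by 500 and 459 bp in iTreg, 494 and 559 bp in donor Tconv and 412 and 536 bp in host Tconv. The widest peaks of the first 3 were at 90.6 kb, chr4:32328475-32329481, with 886 and 881 bp in iTreg, 945 and 937 bp in donor Tconv and 429 and 998 bp in host Tconv. At 69.0 kb both iTreg widths lay below all Tconv widths, at 88.0 and 90.6 kb they lay among them, and every in vivo Treg library was at 0 bp.

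In the middle of the gene, chr4:32393119-32393646 at 155 kb was covered by 494 and 430 bp in iTreg, 516 and 418 bp in donor Tconv and 378 and 397 bp in host Tconv. At 162 kb, chr4:32399852-32400463 had 462 and 440 bp in donor Tconv and 319 and 566 bp in host Tconv and none in iTreg, the single lost Bach2 region that iTreg also lacked. Near the 3′ end, chr4:32530998-32531715 at 293 kb had 382 and 514 bp in iTreg, 578 and 571 bp in donor Tconv and 295 and 712 bp in host Tconv. The last one, chr4:32570574-32571870 at 333 kb, was wider in iTreg, at 899 and 1297 bp, than in donor Tconv, at 492 and 490 bp, or host Tconv, at 417 and 739 bp.

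Bach2 also had regions with a peak in in vivo Treg and in no Tconv library. One of them, chr4:32287886-32288704 at 49.9 kb, was covered by 456 and 516 bp in donor Treg, 819 and 455 bp in host pTreg and 287 and 548 bp in host tTreg. It had no peak in iTreg or Tconv, and it was the only region of the 2 genes called higher in in vivo Treg (adjusted p = 0.0192, Fisher's exact test), where 587 (3.35%) of the testable regions were called. Of all 76882 regions, 0.764% had a peak in all 6 in vivo Treg and no Tconv library, and 0.388% were also absent from iTreg. It stood in all 6 in vivo Treg libraries and no other when lists were cut to equal length. Upstream of the gene, chr4:32225250-32225633 at 13 kb from the 5′ end had 150 and 335 bp in donor Treg, 191 and 239 bp in host pTreg and 0 and 358 bp in host tTreg, and none elsewhere. A region at 163 kb, chr4:32401434-32401853, had 420 and 349 bp in host pTreg, 226 and 402 bp in host tTreg and none in donor Treg, iTreg or Tconv. It was the only region of the 2 genes with a peak in these 4 libraries and no other, where 91 regions (0.118%) of all were; host and donor cannot be told apart here from the run codes DR31 and BW13.

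**Figure D4:**
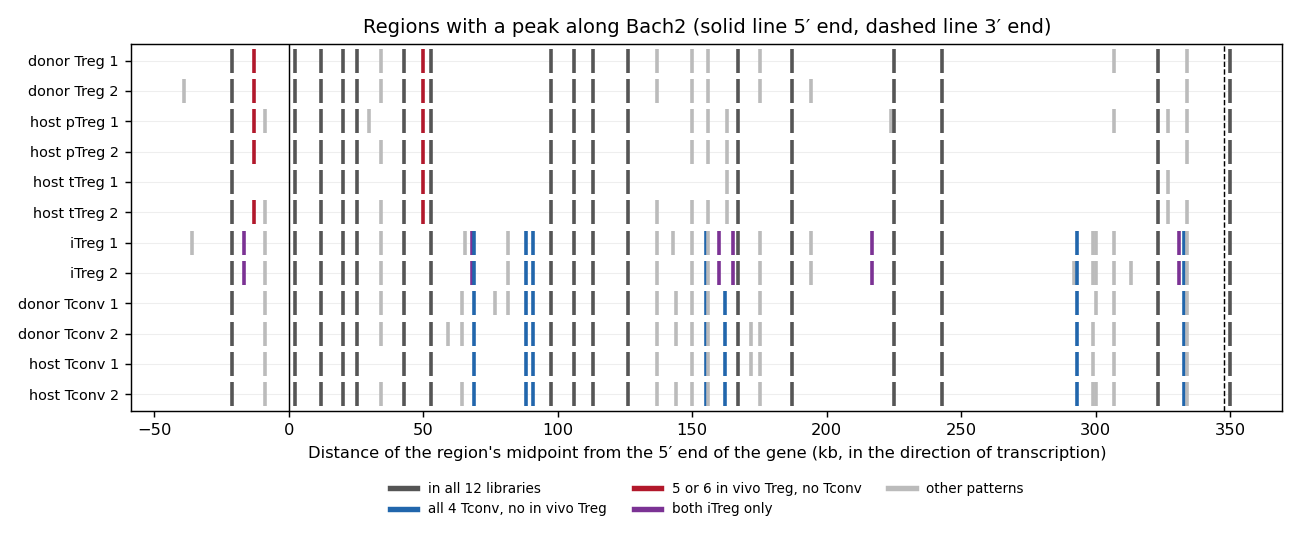
Each tick is a region with a peak in that library, at the distance of its midpoint from the 5′ end of Bach2 in kb. Blue ticks mark the 7 regions lost in in vivo Treg, all 69.0 kb or more into the gene, 6 of them with ticks in both iTreg libraries; red ticks mark regions of 5 or 6 in vivo Treg and no Tconv library, and the other colours are given in the legend.

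The 16 lost Foxp1 regions lay from 18.8 to 499 kb from the 5′ end, with 6, 4, 5 and 1 in 4 equal lengths of the gene. All 82 regions of the body were divided into 27, 31, 13 and 11. Closest to the 5′ end, 4 lost regions followed each other: chr6:99503758-99504159 at 18.8 kb, chr6:99502060-99502559 at 20.4 kb, chr6:99498015-99498554 at 24.5 kb and chr6:99485822-99486820 at 36.4 kb. The widest of them, at 36.4 kb, was covered by 627 and 897 bp in iTreg, 756 and 756 bp in donor Tconv and 651 and 793 bp in host Tconv. At 24.5 kb the values were 238 and 292 bp in iTreg, 497 and 484 bp in donor Tconv and 191 and 400 bp in host Tconv. A single iTreg library, replicate 2, had the region at 20.4 kb. With lists cut to equal length, only that at 36.4 kb among these 4 still had a peak in all 4 Tconv libraries.

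Further in, iTreg and Tconv shared chr6:99395566-99396220 at 127 kb, with 404 and 449 bp in iTreg, 589 and 587 bp in donor Tconv and 472 and 609 bp in host Tconv. They also shared chr6:99364670-99364983 at 158 kb, with 269 and 274 bp in iTreg against 306, 269, 245 and 303 bp in Tconv, and chr6:99358924-99359695 at 163 kb, with 455 and 772 bp in iTreg against 581, 413, 356 and 415 bp in Tconv. Beyond the middle start, the regions kept in both iTreg libraries were chr6:99191695-99192390 at 331 kb, with 328 and 374 bp in iTreg against 622, 584, 578 and 678 bp in Tconv, and chr6:99179113-99179434 at 343 kb. At 331 kb both iTreg libraries lay below all Tconv libraries. Regions at 273, 322 and 358 kb, which are chr6:99249627-99250057, chr6:99201019-99201456 and chr6:99164734-99165147, had a peak in 1 iTreg library each.

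Absent from in vivo Treg and iTreg alike were 3 Foxp1 regions. At 113 kb, chr6:99409621-99410204 had 405 and 382 bp in donor Tconv and 353 and 584 bp in host Tconv. At 356 kb, chr6:99166167-99166495 had 291 and 242 bp in donor Tconv and 283 and 276 bp in host Tconv. The one nearest to the downstream start, chr6:99023497-99024176 at 499 kb, had 514 and 458 bp in donor Tconv and 558 and 680 bp in host Tconv. Peaks of in vivo Treg and Tconv but not of iTreg were found at 119 kb, chr6:99403720-99404413, with 363 and 349 bp in donor Treg, 369 and 321 bp in host pTreg, 189 and 250 bp in host tTreg and 694, 567, 536 and 663 bp in Tconv.

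Besides the downstream start, 2 neighbouring Foxp1 regions at 182 kb had peaks in 5 of 6 in vivo Treg libraries and no Tconv library. The one at chr6:99340991-99341316 had 196 and 189 bp in donor Treg, 263 and 235 bp in host pTreg, 0 and 284 bp in host tTreg and 225 and 326 bp in iTreg. The one at chr6:99340281-99340543 had from 150 to 263 bp in the same 5 in vivo Treg libraries and none in iTreg. With these, the 2 genes had 5 regions with a peak in 5 or 6 in vivo Treg and no Tconv library, 2 at Bach2 and 3 at Foxp1, where 976 regions (1.27%) of all were of this kind. Of the 5 regions 3 were also absent from iTreg, 2 at Bach2 and 1 at Foxp1, as 0.667% of all regions were. With lists cut to equal length, only the region at 49.9 kb of Bach2 and the downstream Foxp1 start kept their number of in vivo Treg libraries; the Bach2 region upstream of the gene had a peak in 3, and both Foxp1 regions at 182 kb in 2.

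**Figure D5:**
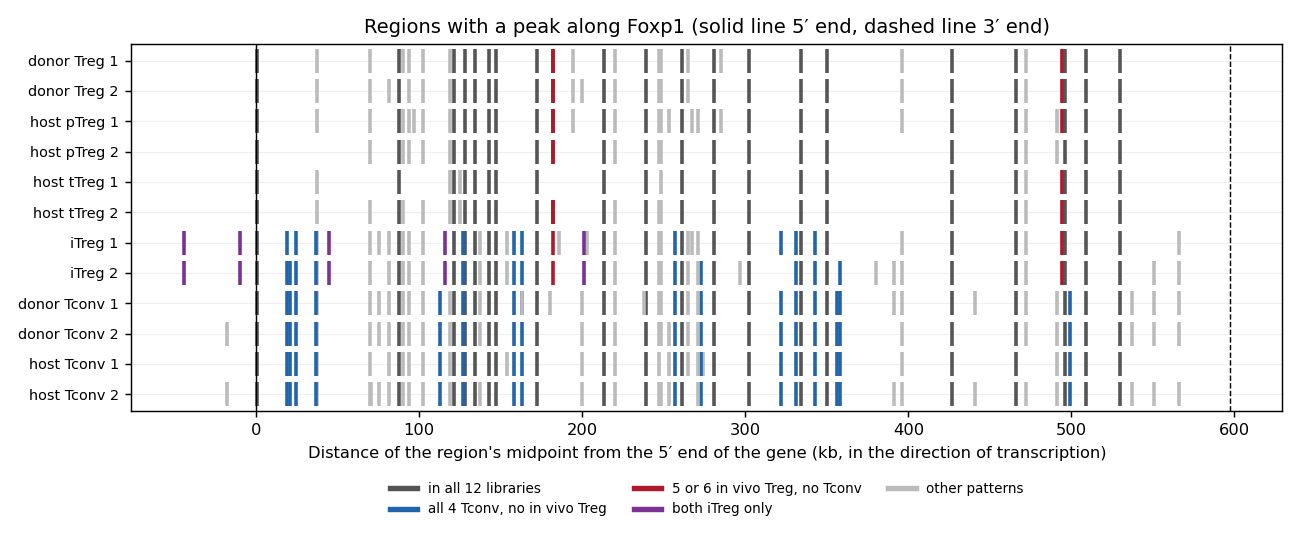
Each tick is a region with a peak in that library, at the distance of its midpoint from the 5′ end of Foxp1 in kb. Blue ticks mark the 16 regions lost in in vivo Treg, from 18.8 to 499 kb, of which 9 have ticks in both iTreg libraries; red ticks at 182 and 494 kb mark regions of 5 in vivo Treg libraries and no Tconv library.

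The lost regions were narrow in the libraries that had them, as lost regions of the whole genome were. Their median width in Tconv was 515 bp at Bach2 and 361.5 bp at Foxp1, against 1736.5 and 965.5 bp for the regions of the same genes with a peak in all 12 libraries. Over all regions these medians were 352.5 bp for lost regions and 914.5 bp for those in all 12 libraries. The widest Tconv value among the 23 lost regions was 1509 bp, at the middle Foxp1 start. With peaks under 300 bp left out, 10 Foxp1 regions were lost in place of 16.

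Some regions with a peak in all 12 libraries were narrower in in vivo Treg. Of 17 such regions at Bach2, 7 (41.2%) were covered by fewer bases in every in vivo Treg library than in any Tconv library, and of 20 at Foxp1, 10 (50.0%), where 18.0% of 21435 regions in all were. None of the 37 was wider in every in vivo Treg library, as 0.886% of all such regions were. At Bach2 the region at 323 kb, chr4:32560157-32562004, had 655 and 483 bp in donor Treg, 713 and 381 bp in host pTreg and 355 and 318 bp in host tTreg, against 1762 and 1375 bp in iTreg and 1821, 1364, 1336 and 1403 bp in Tconv. At Foxp1 the region at 239 kb, chr6:99283076-99284845, had 581 and 573 bp in donor Treg, 517 and 533 bp in host pTreg and 354 and 625 bp in host tTreg, against 1625 and 1687 bp in iTreg and 1382, 1098, 1148 and 1661 bp in Tconv. In both, iTreg widths lay among or above those of Tconv and above all of in vivo Treg. This count was added after the data had been seen and depends on 1 library: without host Tconv replicate 1 it was 12 at Bach2 and 14 at Foxp1, with 44.8% of all such regions. Within BW13, donor Treg against Tconv, it was 7 and 14, with 33.2% of all.

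Of the 23 lost regions, 15 (65.2%) had a peak in both iTreg libraries, 6 of 7 at Bach2 (85.7%) and 9 of 16 at Foxp1 (56.2%). A further 4, all at Foxp1, had a peak in 1 iTreg library, where 9.5% of all lost regions did. The last 4, 1 at Bach2 and 3 at Foxp1, had none, as 25.0% of all lost regions did. Of all 3770 lost regions 65.5% had a peak in both, and the share kept at the 2 genes was near it. Of the regions with a peak in all 4 Tconv libraries, 1 at Bach2 (3.23%) and 6 at Foxp1 (12.2%) had none in iTreg, against 6.31% of all such regions. The iTreg lists were the longest, and the number kept fell with equal list lengths to 2 of 7 at Bach2 and 3 of 10 at Foxp1, where 38.4% of all lost regions were kept.

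The comparison of iTreg with in vivo Treg shares its in vivo Treg libraries with that of in vivo Treg and Tconv. Both genes had more regions in iTreg, at means of 43.5 ± 0.707 against 25.3 ± 2.94 in in vivo Treg for Bach2 and of 58.0 ± 1.41 against 34.3 ± 5.2 for Foxp1 (SD, n = 2 and 6). Each gave p = 0.0357 in the exact permutation test, the smallest that 28 divisions allow, and 0.0714 adjusted over 4 tests. Per 10000 regions of the library the direction turned and the groups overlapped, with 7.26 ± 0.56 in iTreg against 7.81 ± 0.334 in in vivo Treg for Bach2 and 9.67 ± 0.354 against 10.6 ± 0.925 for Foxp1 (exact permutation test, adjusted p = 0.238 and 0.25). Against Tconv, iTreg lay lower per 10000 at both genes, with differences of -1.24 for Bach2 and -4.27 for Foxp1, without overlap. Each was at the smallest p that 15 divisions allow in the exact permutation test, 0.0667, and 0.0889 after adjustment. In number of regions iTreg minus Tconv was 7.75 at Bach2, without overlap, and -0.75 at Foxp1, with overlap. Regions found in both iTreg libraries and in no other numbered 6 of 59 at Bach2 and 5 of 85 at Foxp1, where 16.5% of all regions were of this kind.

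The 3 in vivo Treg groups lacked similar shares of regions at Bach2, and host tTreg lacked the largest share at Foxp1. Of the regions with a peak in all 4 Tconv libraries, donor Treg lacked 8 at Bach2 (25.8%) and 18 at Foxp1 (36.7%), where 16.2% of all such regions were lacking. Host pTreg lacked 9 (29.0%) and 18 (36.7%), against 15% of all, and host tTreg 9 (29.0%) and 22 (44.9%), against 20.3% of all. Each of these shares is of the same Tconv libraries. Host tTreg replicate 1, with the shortest list, had the fewest regions at both genes. Per 10000 regions of the library, host tTreg lay lowest at Foxp1, at 9.64 and 9.55 against 10.2 to 11.8 in the other groups. At Bach2 donor Treg lay highest, at 8.31 and 8.08 against 7.41 to 7.81. These differences were not tested.

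Set group against group, with 2 libraries each and therefore no test, donor Treg had 2 Bach2 and 4 Foxp1 regions that donor Tconv lacked, where 2.41% of all regions in either group were of this kind. Of the regions in either group, 44 at Bach2 and 69 at Foxp1, donor Treg lacked 10 (22.7%) and 23 (33.3%) that both donor Tconv libraries had. Of all regions in either group 19.9% were of this kind. The numbers and shares that follow are likewise out of the regions in either group. Host pTreg lacked 10 of 43 at Bach2 and 18 of 71 at Foxp1 (23.3% and 25.4%) against host Tconv, where 11.5% of all were lacking, and had 3 and 2 that host Tconv lacked, where 5.51% of all were. Host tTreg lacked 10 of 41 and 23 of 68 (24.4% and 33.8%), where 15.2% of all were, and had 3 and 2 of its own, where 3.86% of all were. Between host pTreg and host tTreg no Bach2 region and 3 Foxp1 regions differed in both libraries, 2 of them found in pTreg, where 3.35% of all regions were found in pTreg alone and 0.452% in tTreg alone. Against donor Treg, iTreg had 16 Bach2 and 18 Foxp1 regions that donor Treg lacked, 32.7% and 26.1% of those in either, where 34.7% of all regions were, and it lacked 2 and 3, where 2.92% of all were. Against donor Tconv, iTreg had 7 Bach2 and 8 Foxp1 regions of its own, where 21.4% of all were, and lacked 3 and 7, where 5.63% of all were.

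Other genes of the naive and resting state lost regions at about the rate of all genes. The list held 22 genes, all with regions, and 20 of their 186 regions with a peak in all 4 Tconv libraries were lost in vivo (10.8%), a share near the 11.2% of all regions. The median gene of the list lost 0. In 10 genes at least 1 region was lost and called lower by Fisher's exact test. Of the 15830 genes with a region, 2244 had a lost region. Lef1 and Satb1, which encode factors of naive T cells and their chromatin, lost 4 of 14 and 4 of 13, and Bcl2, which encodes a survival factor, 4 of 18. Il6ra, the interleukin 6 receptor gene, lost 2 of 9, and Klf2, Foxo3, Btg1, Btg2, Ets1 and Id3 lost 1 each. Tcf7, Ccr7, Il7r, S1pr1 and Foxo1, genes of naive T cell identity, homing and survival, lost none of 6, 8, 2, 12 and 11. Ccr7, Bcl2 and Tgfbr2 each had 1 region called higher, where 3.35% of all testable regions were. Of the 20 lost regions 9 were kept in both iTreg libraries, where 65.5% of all lost regions were.

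Among 8 relatives and partners, 5 of 27 regions were lost (18.5%), against 11.2% of all, and 1 of the 5 was kept in both iTreg libraries, against 65.5% of all. Bach1, the closest relative of Bach2, lost 3 of 12 regions, 1 of them kept in both iTreg libraries. Foxp3 lost both of its regions with a peak in all 4 Tconv libraries. Foxp4 lost none of 5 and had 1 region called higher in in vivo Treg by Fisher's exact test, where 3.35% of testable regions were. The genes Mafk, Mafg and Maff, which encode the small Maf partners of Bach2, lost none of 1, 2 and 2. In the list of 11 genes of AP-1, BATF and their associates, 3 of 32 regions were lost (9.38%, against 11.2% of all), 1 each at Fos, Irf4 and Prdm1, the last a known target of repression by Bach2. Fosb had 1 region with a peak in 5 or 6 in vivo Treg libraries and no Tconv library, and so had Prdm1, where 1.27% of all regions were of this kind.

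Genes whose regions followed Bach2 most closely over the 12 libraries were Ranbp9 (Pearson r = 0.921), Poc1b (0.908), Gtf2i (0.894), Ppp2r5a (0.886) and Fbxl17 (0.886). Those closest to Foxp1 were Nemp2 (0.982), Thada (0.967), Chd7 (0.961), Fbxl17 (0.958) and Rasa3 (0.956). The measure was the share of a gene's regions with a peak minus the share of all regions with a peak in that library, over 1602 genes with 10 or more regions. It is a description, since all genes share the same libraries. Bach2 and Foxp1 had r = 0.846 with each other, and the median gene had 0.167 with Bach2 and 0.156 with Foxp1. By rank among the genes compared, Foxp1 was number 18 for Bach2, and Bach2 number 89 for Foxp1. Thada lost 7 of its 22 regions with a peak in all 4 Tconv libraries, and Chd7 7 of 26. Of all such regions 11.2% were lost. The other genes named here lost 1 to 3 of 6 to 15 such regions.

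Markers of other cells moved with some of these groups. In bulk libraries fewer cells of a type and less open chromatin per cell cannot be told apart. Regions of the 7 T cell markers numbered 35 to 42 in in vivo Treg, 39 to 43 in iTreg and 46 to 51 in Tconv, or 10.6 to 13, 6.78 to 6.86 and 10.3 to 12.9 per 10000 regions of the library. All 7 of these genes had peaks in every library. Regions of the 7 B cell markers, of interest because B cells use both genes, numbered 4 to 10 in in vivo Treg, 16 to 19 in iTreg and 2 to 9 in Tconv, or 1.2 to 2.89, 2.78 to 3.03 and 0.56 to 1.94 per 10000, with none at Cd79a in any library. The 7 myeloid markers had 7 to 10 regions in in vivo Treg, 18 to 19 in iTreg and 14 to 19 in Tconv, or 2.24 to 2.72, 3.03 to 3.13 and 3.88 to 4.38 per 10000, with none at Csf1r or Elane. The gap between in vivo Treg and Tconv lay at Itgam, with 3 to 5 and 8 to 11, and at Spi1, with 3 and 5 or 6. In these libraries Cebpa had 1 region each and Lyz2 0, and Mpo had 0 or 1 in both groups. The 5 markers of CD8 T and NK cells had 5 to 12 regions in in vivo Treg, 16 in iTreg and 12 to 18 in Tconv, or 1.85 to 3.26, 2.55 to 2.78 and 3.36 to 3.88 per 10000. Among them Cd8a, which encodes a chain of the CD8 coreceptor, had 0 regions in all 6 in vivo Treg libraries, 3 and 2 in iTreg and 2 or 3 in each Tconv library; both of its regions with a peak in all 4 Tconv libraries were lost in vivo and kept in both iTreg libraries. Other genes of this list did not all follow Cd8a: Cd8b1 lost 1 of 2 such regions, Eomes none of 3 and Klrb1c none of 4. Klrb1c had 4 to 6 regions in in vivo Treg and 4 in each iTreg and Tconv library. The part of such cell types in the loss at Bach2 and Foxp1 was not tested. The 5 Treg markers had 39 to 49 regions in in vivo Treg, 33 to 36 in iTreg and 25 to 37 in Tconv, or 12.5 to 15.2, 5.74 and 6.85 to 8.31 per 10000. The widest gap was at Ikzf2, with 19 to 26 in in vivo Treg, 9 and 11 in iTreg and 6 to 14 in Tconv. Il2ra had 7 to 9 in in vivo Treg, 10 and 9 in iTreg and 6 in each Tconv library. Tnfrsf18 had 1 or 2 in in vivo Treg and 1 in Tconv. Ctla4 had 9 to 12 in both, and Foxp3 2 or 3 in in vivo Treg and 2 to 4 in Tconv. Both Il2ra and Ctla4 encode proteins of the sorts.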

How the data were processed

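ATAC-seq peak lists of 12 libraries, 6 groups of 2, were used as deposited. Per the submitters' processing notes the authors used Bowtie2 2.3.3, HOMER 4.10 and bedtools with mm10; the sources used here do not give settings, read shifting or read numbers. Every peak has a deposited score of 1000, which was not used; only the deposited start and end coordinates were measured, and no peak is narrower than 150 bp. Peaks were merged into regions with Python 3.11.15, numpy 2.4.6, pandas 2.3.3 and scipy 1.17.1. Genes came from a RefSeq table of GRCm38.p6 with gene ends only, so exons and introns were not analysed here; strands came from the promoter table. Library totals were compared by two-sided exact permutation tests and regions by Fisher's exact test, with calls at a Benjamini-Hochberg adjusted p of 0.05 among regions whose number of peaks allows a p below 0.05. The scripts were tested on simulated data. The genes, lists and tests were chosen with earlier results of these data known; widths and promoter windows were examined after the peak lists had been seen. Regions named singly are those lost in vivo, those of all in vivo Treg and no Tconv library and those at starts, with a few further regions chosen after their values were seen. Replicate numbers come from the titles, which differ from the descriptions for some groups, and their check is given with the alternatives. Coordinates count from 1. Some items are not reported here.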

Additional observations from a re-analysis of the deposited data

Results flagged for a closer look

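The number of Bach2 regions with a peak moved in opposite directions from Tconv in the 2 kinds of Treg. All 6 in vivo Treg libraries, with 20 to 28 regions, lay below all 4 Tconv libraries, with 33 to 37, and both iTreg libraries, with 44 and 43, lay above them. The difference between iTreg and in vivo Treg was 18.17 regions (exact permutation test, n = 2 and 6, p = 0.0357, adjusted 0.0714). Per 10000 regions of the library this difference was -0.553, with overlap, and both kinds of Treg had a lower mean than Tconv. The difference from Tconv was then -0.683 for in vivo Treg, with overlap, and -1.24 for iTreg, without overlap. The iTreg libraries carried 74.6% and 72.9% of the Bach2 regions and 74.8% and 81.5% of all regions.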

How the results depend on the processing

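The 10 results were recomputed under the alternatives that apply to each, which gave 186 values in all; 162 kept their direction and side of the threshold or a count within 1.5 times, 11 lost the threshold, 13 counts moved further and 0 turned round. Without peaks under 300 bp, Foxp1 had 10 lost regions and 10 Fisher calls; the count over all regions is not given here for this setting. With lists cut to the 28394 widest peaks, 1702 of all regions were lost and called lower, in place of 3770. Foxp1 then had 10 lost regions, 3 kept in iTreg and 10 Fisher calls, and Bach2 had 2 kept. These 10 were not all among the lost Foxp1 regions described above. Of those, the regions at 18.8, 20.4, 158 and 343 kb then had a peak in no Tconv library. The regions at 24.5, 273, 322, 356 and 358 kb then had one in 1 to 3 Tconv libraries. Within BW13 the differences were -9.25 (Bach2) and -21.8 (Foxp1) regions and -0.294 and -2.48 per 10000 (adjusted p = 0.0889, 0.0889, 0.667 and 0.0889, exact permutation test); Fisher's exact test gave 0 calls at both genes, since 2 libraries against 4 cannot reach the threshold, and 0 of the regions had an unadjusted p under 0.05. With iTreg counted among 8 Treg libraries, Bach2 differed by -5.88 regions (adjusted p = 0.232, exact permutation test) and had 1 lost region and 1 Fisher call, and Foxp1 had 3 of each. Over all regions 941 were then lost and called lower, in place of 3770. With lost taken as 3 or more Tconv and at most 1 in vivo Treg library, Foxp1 had 25 lost regions, and the count over all regions is not given here.

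Leaving out 1 library at a time gave -11.3 to -9.35 regions at Bach2, -26.3 to -22.8 at Foxp1, -0.858 to -0.431 per 10000 at Bach2 and -3.62 to -3.06 at Foxp1. It gave 7 to 9 lost regions, 6 to 7 kept and 7 to 9 Fisher calls at Bach2, and 16 to 21, 9 to 12 and 16 to 21 at Foxp1. Without an in vivo Treg or Tconv library, 3788 to 5917 of all regions were lost, against 3770 with all libraries. Bach2 per 10000 missed the threshold without either host pTreg or either host tTreg library, without donor Tconv replicate 2 and without host Tconv replicate 1 (adjusted p = 0.0635 to 0.107, exact permutation test). The cause of these changes was not tested.

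Equal replicate numbers in the titles showed no pairing of the libraries: over 15 pairs of groups the correlation of deviations ran from -0.131 to 0.0567. This cannot tell whether libraries came from the same animals, which is not given. With the replicate block the differences remained -10.4 and -24.4 regions and -0.683 and -3.37 per 10000 (adjusted p = 0.0133, 0.0133, 0.04 and 0.0133, exact permutation test), with 7 and 16 Fisher calls.

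Read depth is unknown and list length differed between groups, so counts of lost and kept regions are limited by what each list holds.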
